A study of Homo sapiens with 2 samples.

Results

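The cytosines described here lie in the context CNGGG: in the direction of the RNA, the cytosine is followed by any base and then by 3 guanines. They were chosen by sequence alone, read from the hg19 genome (GRCh37), among cytosines covered by at least 10 reads on exons of GENCODE basic transcripts of the nuclear genome, on the strand of the transcript. RNA bisulfite sequencing (RNA BS-Seq) gave 50328 such cytosines of 1580917 exonic cytosines in MCF10A cells and 44417 of 1268699 in MDA-MB-468. They made up 3.18% and 3.5% of all exonic sites. In all, 67340 were covered in either line and 27405 in both. MCF10A is a non-tumorigenic breast epithelial line, labelled epithelial, and MDA-MB-468 is a breast cancer line, labelled cancer. Both lines were untreated. The labels give DMEM as the medium of both, while the methods give RPMI for MDA-MB-468 and a DMEM-based medium with horse serum and EGF for MCF10A, so the medium may differ with the line. Total RNA was selected for poly(A), treated with bisulfite at 60 degrees for 8 hours and sequenced, with 1 library per line and no replicates. A difference between the lines therefore cannot be told apart from a difference between 2 libraries or 2 media, and every interval given below covers the counting of reads or sites only.

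Bisulfite converts an unmodified cytosine to uracil, which is read as T, while 5-methylcytosine (m5C) is largely protected and is still read as C. A cytosine that stays unconverted for another reason, such as lying in a stable stem while the reagent acts, gives the same reading. NSUN2 is a methyltransferase of the NOL1/NOP2/Sun family that is best known for methylating tRNAs near the variable loop, and it also methylates vault RNAs and a set of mRNA sites. Its mRNA sites are known for a G-rich run just downstream of the cytosine, often at the foot of a short hairpin, which is why the context is called NSUN2-type. No sample with altered NSUN2 was analysed here, so dependence of any site on the enzyme was not tested.

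The strongest single sites, printed below, show what the context looks like in the transcripts. Each line gives 28 bases 5′ to 3′ on the RNA strand, written as DNA, with CNGGG in capitals. The first capital is the measured cytosine, and the coordinate is its 1-based position in hg19. The first 11 sites were called and isolated in both lines (defined below) and ranked highest by the lower bound of the 95% interval of the methylation ratio, taken in the line where it was smaller, a ranking that favours deeply covered sites. HDGF and GRB2 are shown because they belong to genes linked to NSUN2, RPS6 because it was the most deeply covered isolated site in both lines, RPS19 because its deeply covered cytosine was not called, NEAT1 as an example of a site inside an unconverted stretch, and MRPS15 because it differed between the lines. RPS6 was chosen after its values were seen.
PLXNA1, 3′UTR, chr3:126755817 (+): tggcctgaggggCTGGGggccccacgac
VARS1, CDS, chr6:31762915 (-): gctatggggaggCTGGGgagggtcccgg
QARS1, 5′UTR, chr3:49141833 (-): ggcctcccgactCAGGGatacccggcgt
CTBP1, 5′UTR, chr4:1235995 (-): gcttggccctctCAGGGgccccctgccc
SPATA20, CDS, chr17:48628471 (+): ccttgctcaattCAGGGctggagaagct
TTLL3, 5′UTR, chr3:9860480 (+): ctaggggctgagCAGGGtatcccctggc
TRAF7, CDS, chr16:2226360 (+): gccgactcttctCAGGGgctgtggatag
ZNF692, 3′UTR, chr1:249144372 (-): gaagccagactcCAGGGactgaaaagga
CSNK1A1, 5′UTR, chr5:148930564 (-): tcccagaggtgtCGGGGcttggccccag
TJAP1, CDS, chr6:43472799 (+): gagtgccactctCTGGGtactgccaggg
INTS1, CDS, chr7:1519218 (-): gcccgcgtcgtcCAGGGcagccccgagg
HDGF, 3′UTR, chr1:156713158 (-): atggcctgcaaaCTGGGaacccctttcc
GRB2, 3′UTR, chr17:73315052 (-): tcctcaccgtctCGGGGgttgtggcccc
RPS6, CDS, chr9:19378862 (-): ttccccatgaagCAGGGtgtcttgaccc
RPS19, CDS, chr19:42373231 (+): gagtgtggcccgCCGGGtcctccaagcc
NEAT1, noncoding exon, chr11:65190892 (+): acggggcccaggCCGGGcccagcctggt
MRPS15, CDS, chr1:36929809 (-): aggtcctagtacCCGGGctgccgggcgg

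The kept sites, mitochondrial ones included, held 60580227 reads over cytosines in MCF10A cells and 42429746 in MDA-MB-468, and each site a median of 18 reads in either line. The background nonconversion, the share of all these reads that were unconverted, was 1.99% and 1.81%. A cytosine was called an m5C site when its unconverted reads exceeded that background by a one-sided Fisher's exact test at a Benjamini-Hochberg adjusted p below 0.05. At a coverage of 10 this took at least 4 unconverted reads in each line, so a weakly methylated cytosine of low coverage could not be called. The lines were checked by the cytosines covered in their marker genes, which is not a measure of expression. KRT5 and KRT17 of basal epithelium and KRT8, KRT18 and KRT19 were covered in both lines, and EGFR had 750 sites in MCF10A cells and 1843 in MDA-MB-468. ESR1, PGR and the blood cell gene PTPRC had none, and neither had the basal genes KRT14 and TP63. The epithelial gene CDH1 had 0 sites in MCF10A cells and 108 in MDA-MB-468, while the mesenchymal gene VIM had 486 in MCF10A, at a median coverage of 465, and 0 in MDA-MB-468.

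Cytosines before NGGG stayed unconverted more often than other exonic cytosines in both lines. In MCF10A, 1108 of the 50328 were called, a share of 2.20% (95% Wilson interval 2.08 to 2.33%), against a background of 0.851% called among all nuclear exonic sites and 0.806% among the exonic sites outside the context. In MDA-MB-468, 817 of 44417 were called, 1.84% (1.72 to 1.97%), against 0.742% of all nuclear exonic sites and 0.702% of the others. The share called was thus 2.73 times that of the other sites in MCF10A cells and 2.62 times in MDA-MB-468. The same was seen without any threshold, because 2.98% of the reads at these cytosines were unconverted in MCF10A cells and 2.68% in MDA-MB-468, against 1.91% and 1.73% at the others. Most of the cytosines in the context were converted in every read, since 57.1% in MCF10A cells and 61.2% in MDA-MB-468 had no unconverted read at all.

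Some called cytosines lay inside stretches where many cytosines stayed unconverted, and others stood alone. A called site was counted as isolated when no other called cytosine lay within 10 nt on its strand and when the other cytosines within 20 nt, of which at least 2 had to be covered, were at most 5% unconverted in sum. Called sites that were not isolated thus include some whose neighbours were largely converted but for another called cytosine close by. The context stood out far more among isolated sites. In MCF10A 166 of the cytosines before NGGG were isolated, 0.330% (0.283 to 0.384%), against a background of 0.06% of all nuclear exonic sites and 0.0512% of the others, a ratio of 6.45. In MDA-MB-468 there were 180, 0.405% (0.350 to 0.469%), against a background of 0.0592% and 0.0466% of the others, a ratio of 8.69. The context therefore held 3.18% of the exonic sites but 17.5% of the isolated ones in MCF10A, and 3.5% but 24% in MDA-MB-468. No test was run on these ratios, since sites of 1 library are not replicates. The sites of the context had a median of 9 covered cytosines within 20 nt against 10 for the others, and among the others in MCF10A the isolated share was higher where fewer neighbours were covered, at 0.0728% with 2 to 4 against 0.0480% with 9 or more. The shares were therefore also set side by side at like numbers of neighbours. With 2 to 4 covered neighbours the isolated share was 3.34 times that of the other sites in MCF10A cells and 3.60 times in MDA-MB-468, with 5 to 8 it was 4.95 and 7.31 times, and with 9 or more 8.10 and 10.4 times.

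At most isolated sites only part of the reads were unconverted. Their median methylation ratio, the share of a site's reads that were unconverted, was 21.1% in MCF10A (quartiles 12.2 and 30.8%) and 18.6% in MDA-MB-468 (11.4 and 30.8%). Only 18 of the 166 and 20 of the 180 reached 50%. Called sites that were not isolated had higher ratios, with medians of 37.6% and 33.3%, and 320 of 942 and 154 of 637 reached 50%. These sites also lay in more GC-rich sequence, with a median GC content of 77.4% over 31 nt in both lines, against 71.0% for the isolated sites. Their median coverage was lower, at 23 and 24 reads against 32 and 37. Fewer reads need a higher ratio for a call, and how much this raised their ratios was not tested. Outside the context, median ratios were likewise 33.3% and 31.6% for called sites that were not isolated and 16.7% and 17.2% for isolated ones. Their median GC content was 74.2% and 67.7% in both lines.

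The share of isolated sites differed with how many of the bases at +2 to +4 were guanines, and the step from 2 to 3 guanines was the largest. In MCF10A the isolated share was 0.0335% with 0 guanines, 0.0467% with 1, 0.0851% with 2 and 0.330% with 3. In MDA-MB-468 it was 0.0278%, 0.0357%, 0.0915% and 0.405% in the same order. The intervals of neighbouring steps did not overlap in either line, except that the interval with 0 guanines reached 0.0336% in MDA-MB-468, above the 0.0310% at which that with 1 guanine began. The share of all called sites differed less, from 0.680% with 0 guanines to 0.956% with 2 and 2.20% with 3 in MCF10A, and from 0.6% to 0.773% and 1.84% in MDA-MB-468. Where exactly 1 of the 3 positions was not a guanine, the isolated share was lowest when it was the first, at 0.0598% in MCF10A cells and 0.0664% in MDA-MB-468. It was 0.0876% and 0.0927% when it was the middle one and 0.108% and 0.115% when it was the last. Each of these stayed below that of 3 guanines by more than the intervals. With fewer guanines these positions can hold a cytosine, which keeps a site from being isolated when it is called. The size of this effect was not tested.

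**Figure D1:**
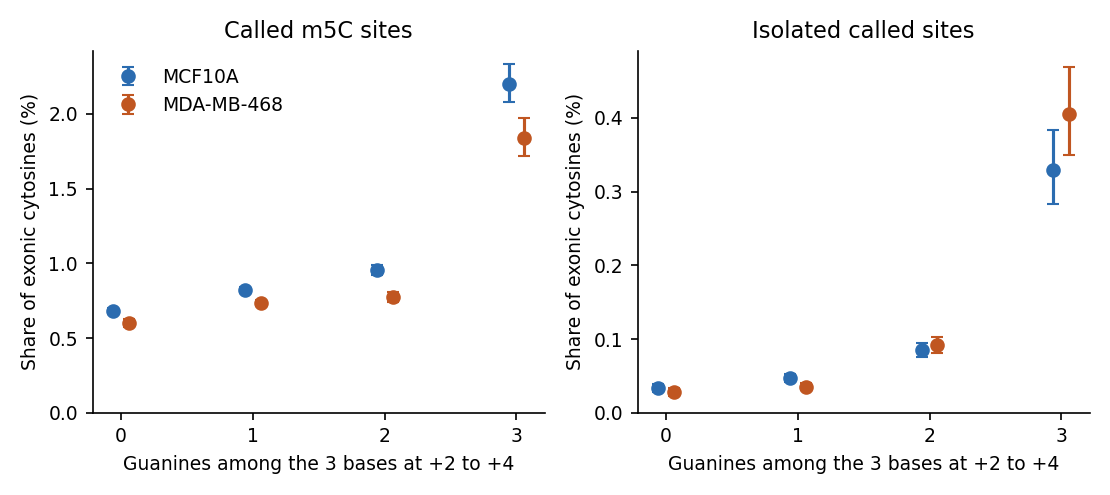
Share of exonic cytosines (y axis, percent) that were called (left) and called and isolated (right) by the number of guanines among the bases at +2 to +4 (x axis), in MCF10A (blue) and MDA-MB-468 (orange), with 95% Wilson intervals over sites. With 3 guanines the isolated share was 0.330% and 0.405%, while it stayed at or below 0.0915% with fewer.

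The 64 possible triplets at +2 to +4 were then set side by side. The triplet of 3 guanines had the highest isolated share and the highest pooled nonconversion of all 64 in both lines. The next isolated shares were 0.126% for GCG in MCF10A and 0.140% for GGA in MDA-MB-468. For the called share it came second, behind CCG, at which 3.20% of the cytosines were called in MCF10A cells and 2.90% in MDA-MB-468. Few of the sites before CCG were isolated, however, at 0.0442% and 0.0608%, which placed that triplet at rank 29 and rank 12. A high called share thus did not always go with a high isolated share. However, CCG itself holds cytosines close to the site, and these keep it from being isolated when they are called. How much this lowered the isolated share of CCG was not tested. The 3 guanines also ranked above the triplets without a cytosine, such as GGA, at 0.113% in MCF10A cells and 0.140% in MDA-MB-468. They were the only triplet that was in the top 2 on both measures in both lines.

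**Figure D2:**
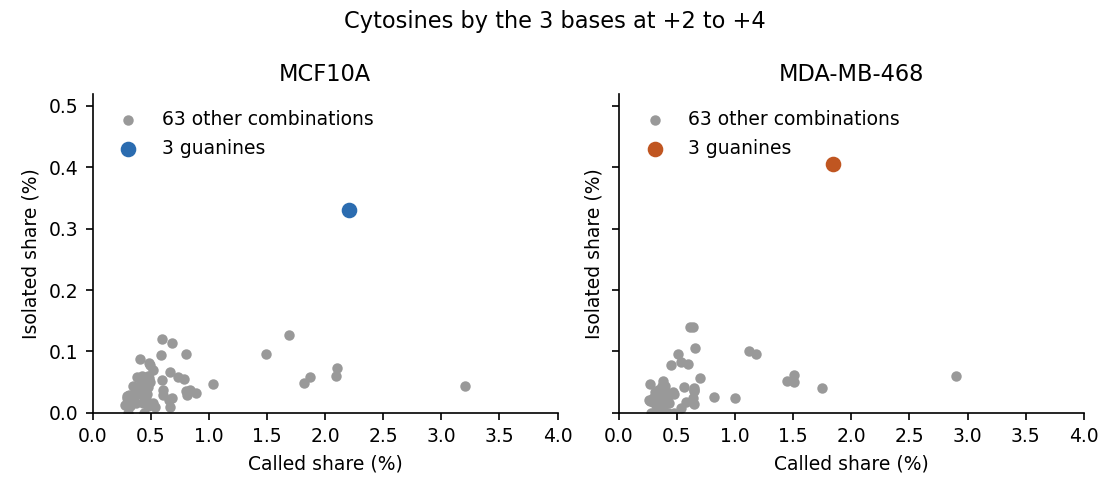
Called share (x axis, percent) against isolated share (y axis, percent) of exonic cytosines for each of the 64 triplets at +2 to +4, in MCF10A (left) and MDA-MB-468 (right). The triplet of 3 guanines (coloured) lies apart at 2.20% and 0.330% in MCF10A and at 1.84% and 0.405% in MDA-MB-468, while the other 63 (grey) stay at or below 0.140% isolated.

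The base between the cytosine and the guanines, which the choice of sites left free, also went with the isolated share. It was highest when that base was G, at 0.755% (0.592 to 0.963%) in MCF10A and 1.03% (0.826 to 1.27%) in MDA-MB-468, followed by A at 0.467% and 0.534%. It was lower with C, at 0.152% and 0.123%, and with T, at 0.137% and 0.163%, and the intervals of C and T overlapped. A next base C that is itself called keeps a site from being isolated, so the share with C depends partly on the definition. Called sites had another order, since C came close to G in the called share, at 3.74% against 3.92% in MCF10A and 2.69% against 3.39% in MDA-MB-468. For each next base the isolated share exceeded that of other exonic cytosines with the same next base, by 4.80 times (C) to 7.78 times (G) in MCF10A and by 4.09 times (C) to 10.6 times (G) in MDA-MB-468. For example, cytosines followed by G outside the context were isolated at 0.0971% and 0.0970%. On the other side, a cytosine just upstream (-1) preceded 36.0% of the sites in the context in MCF10A cells and 36.6% in MDA-MB-468. It preceded 59.7% and 63.1% of the called sites that were not isolated, but 29.5% and 33.9% of the isolated ones. A cytosine at -1 that is itself called keeps a site from being isolated. This contrast is therefore set in part by the definition, and a preference for the base at -1 was not tested.

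The surroundings of the called cytosines were compared next. Of the called sites in the context with at least 2 covered neighbours within 20 nt, 22.4% in MCF10A cells and 27.8% in MDA-MB-468 had neighbours that were at most 5% unconverted, against 10.2% and 11.1% of called sites outside it. At the other end, neighbours unconverted by more than 20% were found at 26.1% and 17.7% of the called sites in the context and at 37.7% and 35.3% of the others. Most called sites of either kind therefore lay among partly unconverted neighbours. Over all sites, called or not, cytosines in the context were more often unconverted than their neighbours, at 2.98% of reads against 2.49% in MCF10A and 2.68% against 2.29% in MDA-MB-468. Other exonic cytosines were slightly less often unconverted than theirs, at 1.91% against 1.96% and 1.73% against 1.79%.

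**Figure D3:**
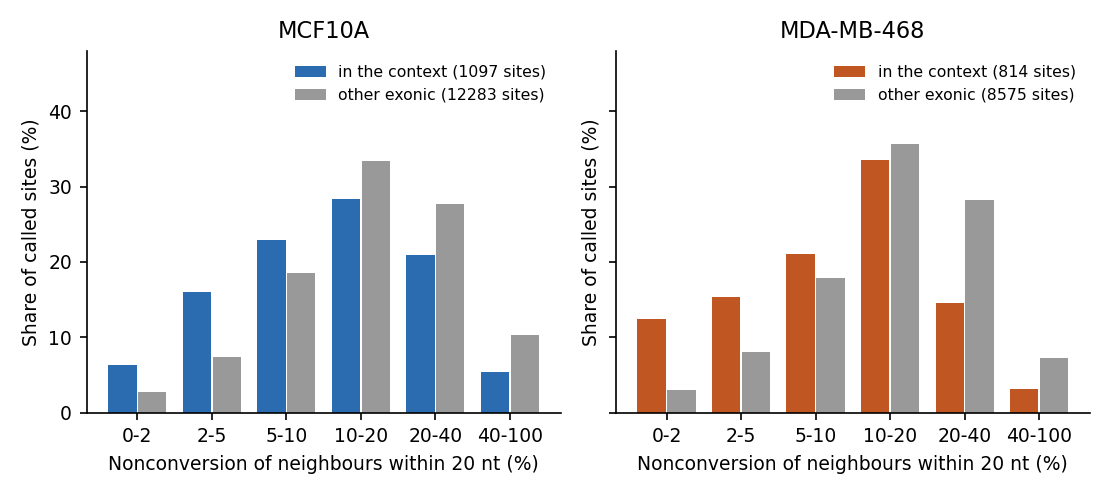
Share of called sites (y axis, percent) by the pooled nonconversion of the other cytosines within 20 nt (x axis, percent), for sites before NGGG (coloured) and other exonic sites (grey), in MCF10A (left) and MDA-MB-468 (right). In the lowest bin, 0 to 2%, lie 6.38% and 12.4% of the called sites in the context, against 2.74% and 2.99% of the others.

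Because bisulfite acts poorly on paired bases, a pairing probability was predicted for each cytosine in its transcript at 70 degrees. Among called sites in the context that were not isolated, 86.7% (84.3 to 88.8%) in MCF10A and 90.1% (87.5 to 92.3%) in MDA-MB-468 had a pairing probability over 0.5. This was the case for 70.6% (63.2 to 77.1%) and 67.3% (59.9 to 73.8%) of the isolated sites, and for 65.0% and 65.9% of those not called. The intervals of isolated and uncalled sites overlapped in both lines, while that of the called but not isolated sites lay above both. Outside the context, isolated sites were more often over 0.5 than uncalled ones. The shares were 72.6% (69.3 to 75.7%) against 57.7% in MCF10A and 72.3% (68.4 to 75.9%) against 59.8% in MDA-MB-468. In all 3 classes of the context the mean pairing probability peaked 3 nt downstream of the cytosine, within the guanines. The peak was 0.825 in MCF10A cells and 0.831 in MDA-MB-468 for isolated sites. It was 0.859 and 0.842 for called sites that were not isolated. The classes parted upstream. At -1 the mean was 0.571 and 0.560 for isolated sites and 0.549 and 0.555 for uncalled ones, but 0.760 and 0.773 for called sites that were not isolated. The isolated cytosines thus lay, on average, at the upstream edge of the predicted stem, as did cytosines of the context that were not called. Called sites that were not isolated more often had a cytosine at -1, in part by definition, and lay in more GC-rich sequence. How far this set their higher pairing upstream was not tested.

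When cytosines with a pairing probability over 0.5 or with no prediction were left out and the calls were repeated, 162 of 17040 cytosines in the context were called in MCF10A cells and 115 of 14537 in MDA-MB-468. The called share was then 2.17 times that of the other sites in MCF10A cells and 1.84 times in MDA-MB-468, and the difference in pooled nonconversion was 0.509 percentage points in place of 1.07 and 0.487 in place of 0.95. The isolated share of the context was 0.293% and 0.392%, close to that without the filter. Its ratio to the other sites was higher than before, at 8.22 and 11, with an isolated share of the others of 0.0357% and 0.0358%. A cytosine that was left out could not count as a called neighbour, so isolation was less strict in this repeat. Among cytosines predicted to be open, the ratio of called shares was thus smaller than among all, and the ratio of isolated shares was not.

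**Figure D4:**
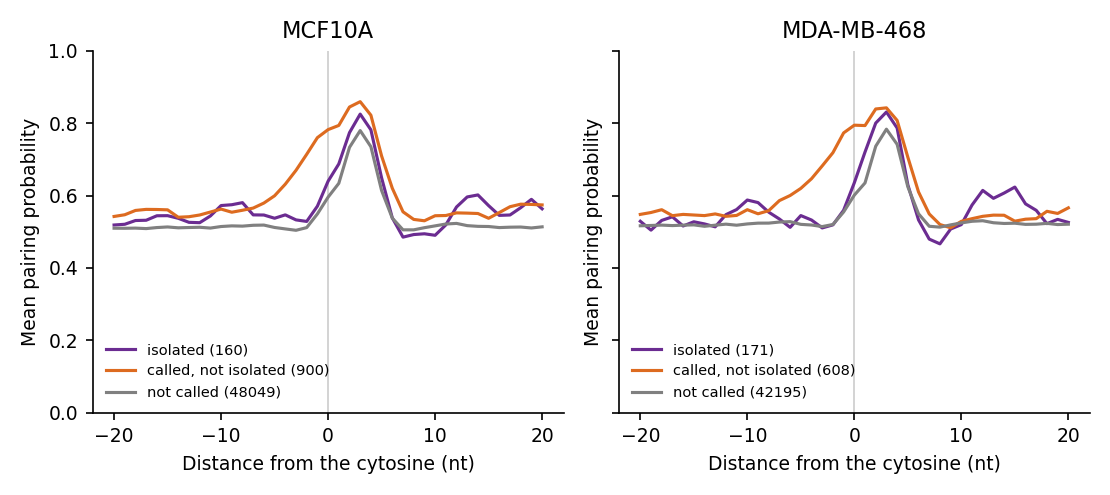
Mean predicted pairing probability (y axis) by distance from the cytosine (x axis, nt, downstream positive) for sites before NGGG, in MCF10A (left) and MDA-MB-468 (right). All classes peak at +3, and called sites that were not isolated (orange) stay higher at and upstream of the cytosine, at 0.760 and 0.773 at -1, than isolated (purple, 0.571 and 0.560) and uncalled ones (grey, 0.549 and 0.555).

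Along the mRNA, called and isolated sites of the context were distributed differently. The called share was highest in 5′UTRs, at 4.79% in MCF10A cells and 3.86% in MDA-MB-468, against 1.82% and 1.68% in coding sequence (CDS) and 1.68% and 1.37% in 3′UTRs. Exonic sites outside the context were also called most often in 5′UTRs, at 2.14% and 1.88%. Their called shares were 0.578% and 0.514% in CDS and 0.804% and 0.711% in 3′UTRs. The isolated share of the context varied less between these 3 regions, at 0.416% (0.286 to 0.605%) and 0.483% (0.319 to 0.730%) in 5′UTRs, 0.277% (0.223 to 0.343%) and 0.360% (0.295 to 0.441%) in CDS, and 0.344% (0.256 to 0.461%) and 0.436% (0.335 to 0.567%) in 3′UTRs. These intervals overlapped between all 3 regions in each line. In noncoding exons, with 1019 and 1176 sites of the context, it was higher, at 1.18% (0.675 to 2.05%) in MCF10A, an interval clear of those of the 3 mRNA regions, and at 0.765% (0.403 to 1.45%) in MDA-MB-468, where the intervals overlapped. The largest number of isolated sites lay in CDS, with 83 of 166 in MCF10A cells and 94 of 180 in MDA-MB-468, followed by 3′UTRs with 44 and 55 and 5′UTRs with 27 and 22. Noncoding exons gave 12 and 9. Outside the context the isolated share was likewise highest in noncoding exons, so the higher share there was not particular to the context. For MCF10A cells these other sites had 0.128% there, against 0.0764% in 5′UTRs, 0.0471% in CDS and 0.0421% in 3′UTRs. Their MDA-MB-468 shares were 0.0963%, 0.0587%, 0.0432% and 0.0457% in the same order. The isolated share of the context exceeded that of the other sites in each region of each line. Isolated sites were spread over 144 protein-coding genes in MCF10A cells and 155 in MDA-MB-468, of 6829 and 6125 with a cytosine in the context.

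The other library served as the only repeat of each site. Of the 27405 cytosines in the context covered in both lines, 664 were called in MCF10A cells and 550 in MDA-MB-468. Called in both were 354 of the 27405, against a background of 4023 of the 810403 exonic sites covered in both, 0.496%. The 354 were 53.3% of those called in MCF10A and 64.4% of those called in MDA-MB-468. The matching shares of the other exonic sites were near these, at 47.8% and 62.9%. Isolated in MCF10A were 109, in MDA-MB-468 126, and in both 38, which is 34.9% and 30.2%, where it was 16.4% and 19.7% for the other exonic sites. The 38 came to 0.139% of the cytosines of the context covered in both lines, against a background of 0.0146% of all exonic sites and 0.0102% of the others, a ratio of 13.6. The context held 3.38% of the sites covered in both lines and 32.2% of the sites isolated in both. The 109 sites isolated in MCF10A had 8.88% unconverted reads there and 8.84% in MDA-MB-468, a library that took no part in choosing them. Their median ratio in MDA-MB-468 was 6.45%, and 40 of them (36.7%) were called there. For all 166 isolated sites of the context in MCF10A, the median ratio in that line was 21.1%. Isolated sites of MCF10A outside the context had a median ratio of 4.76% in MDA-MB-468, and 19.8% of them were called there. In the other direction, the 126 sites isolated in MDA-MB-468 had 9.32% unconverted reads there and 10.4% in MCF10A, with a median ratio of 12.7% in MCF10A and 58 called (46.0%). For all 180 isolated sites of the context in MDA-MB-468, the median ratio in that line was 18.6%. Sites isolated in MDA-MB-468 outside the context had a median of 8.33% in MCF10A, and 130 of 406 were called there. Pooled shares are weighted to deeply covered sites such as RPS6.

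The ratios of the 38 sites ran in parallel in the lines. They ranged from 4.54 to 94.7% in MCF10A, with a median of 24.1%, and from 5.14 to 85.7% in MDA-MB-468, with a median of 25.8%. Across these sites Pearson's r was 0.880 and Spearman's rho 0.858, which describes sites chosen for being called in both libraries. The median absolute difference was 7.26 percentage points, and 27 of the 38 differed by less than 10. None of the 38 differed between the libraries by the per-site test described below, and 24 were higher in MDA-MB-468. Of the 38, 17 lay in CDS, 11 in 3′UTRs, 8 in 5′UTRs and 2 in noncoding exons. The next base was A in 15, G in 13, T in 8 and C in 2, whereas T was the most frequent next base among all cytosines of the context covered in both lines, at 35.5%.

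**Figure D5:**
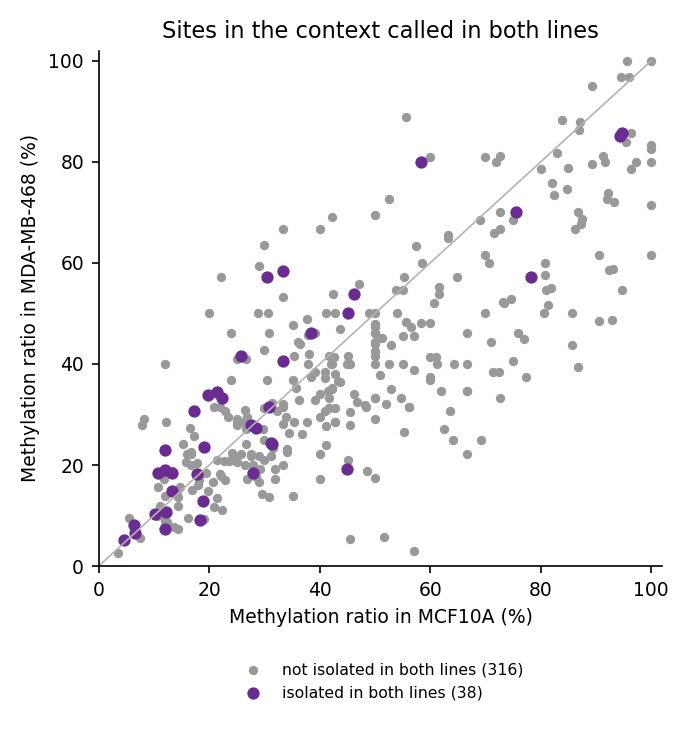
Methylation ratio in MCF10A (x axis, percent) against MDA-MB-468 (y axis, percent) for the 354 cytosines before NGGG called in both lines, with the line of equal ratios. The 38 sites isolated in both lines (purple) span 4.54 to 94.7% in MCF10A and lie along the line, and the other 316 (grey) spread more widely, with many below it.

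The sites ranked highest by the lower bound lay in transcripts of unlike function. In the 3′UTR of PLXNA1, a semaphorin receptor, 17 of 18 reads were unconverted in MCF10A (94.4%, 74.2 to 99%) and 23 of 27 reads in MDA-MB-468 (85.2%, 67.5 to 94.1%), while 0.431% and 1.16% of the reads at 12 and 14 neighbouring cytosines were. In the CDS of VARS1, the valyl-tRNA synthetase, 18 of 19 and 12 of 14 reads were unconverted (94.7% and 85.7%), with 0 at 8 neighbours in either line. Both sites thus stood nearly fully unconverted among converted neighbours. Each had a predicted pairing probability of 0.99 at the cytosine, so both were left out in the repeat without cytosines predicted to pair. Whether pairing kept them unconverted was not tested. QARS1, another aminoacyl-tRNA synthetase, for glutamine, had 31 of 41 (75.6%) and 7 of 10 (70%) in its 5′UTR, with a pairing probability of 0.44. The 5′UTR of CTBP1, a transcriptional corepressor, had 18 of 23 (78.3%) and 16 of 28 (57.1%). In these 5′UTR sites the cytosine was followed by A and the guanines, as in SPATA20, TTLL3, TRAF7, ZNF692 and INTS1 above.

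The other 8 sites of this ranking were mostly of intermediate ratio. SPATA20 had 23 of 51 reads unconverted in MCF10A (45.1%) and 13 of 26 reads in MDA-MB-468 (50%). TTLL3, of the tubulin tyrosine ligase-like family, had 7 of 12 (58.3%) and 8 of 10 (80.0%). KIFC2, a kinesin, had 6 of 13 (46.2%) and 14 of 26 (53.8%). The intervals of the lines overlapped at each of these, since few reads stood behind each value. TRAF7, an E3 ubiquitin ligase, had 5 of 13 (38.5%) and 6 of 13 (46.2%), and ZNF692, a zinc finger protein, had 7 of 23 (30.4%) and 8 of 14 (57.1%). CSNK1A1, casein kinase 1 alpha, had 25 of 112 (22.3%) and 8 of 24 (33.3%), with the next base G and a pairing probability of 0.90. TJAP1, a protein associated with tight junctions, had 5 of 15 (33.3%) and 7 of 12 (58.3%), and INTS1 of the Integrator complex 5 of 15 (33.3%) and 13 of 32 (40.6%). Because the ranking favours depth, some sites outside it had a higher ratio than CSNK1A1 in either line. A 3′UTR site of COLGALT1 was higher in both lines, with 8 of 31 (25.8%) and 5 of 12 (41.7%). EXOC7, of the exocyst complex, was higher in MCF10A only, with 4 of 13 (30.8%) and 12 of 38 (31.6%). Both were named after their values were seen.

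More deeply covered sites among the 38 fix the ratio more closely, and these were chosen after their values were seen. RPS6, of the small ribosomal subunit, had 127 of 1908 reads unconverted in MCF10A (6.66%, 5.62 to 7.87%) and 55 of 837 reads in MDA-MB-468 (6.57%, 5.08 to 8.46%), with neighbours at 0.981% and 0.988%. CTSD, the lysosomal protease cathepsin D, had 26 of 146 (17.8%) and 55 of 302 (18.2%) in its 3′UTR. These ratios were nearly equal between the lines, at sites picked with their values known. That they lay above those of the neighbours is largely set by the definition of an isolated site. COTL1, an actin-binding protein, had 40 of 202 (19.8%) and 24 of 71 (33.8%), and NDUFB7, of respiratory complex I, had 6 of 50 (12%) and 62 of 271 (22.9%). Both were higher in MDA-MB-468, and neither difference passed the per-site test.

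The 5 cytosines of the context with the highest coverage in both lines lay in AC079949.1, RPS19 and RPL8, and 4 of them were not called. In RPS19, of the small ribosomal subunit, 31 of 2796 reads were unconverted in MCF10A (1.11%) and 29 of 2293 reads in MDA-MB-468 (1.26%). In RPL8, of the large subunit, adjacent cytosines had 0.460% and 1.14% in MCF10A and 0.447% and 1.13% in MDA-MB-468. None of these was called. AC079949.1, annotated as a microRNA gene, held the deepest sites, with 68 of 9323 (0.729%) and 293 of 44313 (0.661%) at one cytosine, which was not called. At the other, 8 nt downstream, 320 of 9283 (3.45%) and 1145 of 44073 (2.60%) were unconverted, a ratio close to the background that was called in both lines at this depth and was not isolated, with neighbours at 4.97% and 4.84%. The depth of AC079949.1 was far above the median of 18 reads per site. Reads of similar sequence from elsewhere could fall there, which was not tested.

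The called sites of highest coverage that were not isolated were of unlike surroundings. In NEAT1, the long noncoding RNA that scaffolds paraspeckles, the printed cytosine had 355 of 699 reads unconverted in MCF10A (50.8%) and 474 of 1052 reads in MDA-MB-468 (45.1%), but its 13 neighbours stood at 25.2% and 21.6%. A cytosine of the context 17 nt upstream had 51.3% and 45.1%, with neighbours at 34.3% and 30.5%. The pairing probability of these cytosines was 0.97 and 0.98. DDIT4, a stress-induced inhibitor of mTORC1, had 59 of 435 (13.6%) and 28 of 361 (7.76%), with neighbours at 4.58% and 2.96%, so it did not lie in an unconverted stretch and was not isolated only because of another called cytosine within 10 nt. EDARADD, an adaptor of the ectodysplasin receptor, had 79 of 316 (25%) and 80 of 286 (28%) in its 3′UTR, with neighbours at 13.4% and 14.3%. The letters around this cytosine also occur in ENO1, described next, so reads within them fit both loci.

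A list of 13 genes that published work has linked to NSUN2 was looked up, whatever their values. The vault RNAs VTRNA1-1, VTRNA1-2 and VTRNA1-3, the classical small RNA targets, had no cytosine covered by 10 reads in these poly(A)-selected libraries, and CDK1 had none in the context. The other 9 genes held 162 such cytosines, of which 7 of 160 were called in MCF10A cells and 2 of 79 in MDA-MB-468, and 2 in each line were isolated. Over all cytosines of the context 2.20% and 1.84% were called, and 0.330% and 0.405% were isolated. Of the 7 called in MCF10A, 4 lay in SHC1. CDKN1A, the cell cycle inhibitor p21, had 21 and 14 cytosines in the context and none called, and those of CDKN1B, CINP, NAPRT and ICAM1 were not called either. The deepest one of CDKN1A had 7 of 647 reads unconverted in MCF10A (1.08%), so a ratio above 2.22% lay outside its interval.

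HDGF, a growth factor, had the clearest site of this list. At the printed 3′UTR cytosine, 22 of 43 reads were unconverted in MCF10A (51.2%, 36.8 to 65.4%; adjusted p = 2.7e-23 by Fisher's exact test), while 16 neighbours stood at 0.253% and the pairing probability was 0.02. In MDA-MB-468 only 5 reads covered it, 1 of them unconverted, so it was not tested there. Another HDGF cytosine of the context, in the same 3′UTR, had 2 of 193 unconverted (1.04%) in MCF10A. GRB2, an adaptor of receptor tyrosine kinases, had 10 of 19 reads unconverted (52.6%) in MCF10A at the printed 3′UTR cytosine and 16 of 22 (72.7%) in MDA-MB-468, called in both lines. Its neighbours stood at 6.53% and 0.543%, so it counted as isolated in MDA-MB-468 only. SHC1, another adaptor, had 4 called cytosines in MCF10A and none isolated: a pair of adjacent ones in the 3′UTR at 17.6% and 16.1%, and 2 in a 5′UTR at 28.5% and 63.8% whose neighbours were as unconverted, at 28.5% and 63.3%.

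ENO1, the glycolytic enzyme enolase, had 9 of 20 reads unconverted in MCF10A (45.0%) and 5 of 26 reads in MDA-MB-468 (19.2%) at a CDS cytosine that was isolated in both lines. Coverage there was low for this transcript, since another of its cytosines had 1028 and 1150 reads. The 31 bases around the site, with C read as T, are identical to those at the EDARADD site on chromosome 1, so reads within them fit either locus and the values of both are uncertain. Such shared surroundings were rare. They concerned 3 of the 166 isolated sites in MCF10A, 3 of the 180 in MDA-MB-468 and 2 of the 38 isolated in both, namely ENO1 and a 5′UTR cytosine of RPS19. With all cytosines of shared surroundings left out, the isolated share was 6.45 times that of the other sites in MCF10A cells and 8.68 times in MDA-MB-468.

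The lines were finally compared cytosine by cytosine, by Fisher's exact test (two-sided), adjusted over the 810403 exonic sites covered in both. In the context 17 of 27405 cytosines differed, 0.0620%, against a background of 0.0796% of all sites, so the context held no larger share of differences. Of the 17, 3 were higher and 14 lower in MDA-MB-468, where the background was 0.0148% higher and 0.0648% lower. The test compares 2 libraries. The 3 largest differences lay in S100A9, a calcium-binding protein of the calprotectin complex. At the first, 20 of 27 reads were unconverted in MCF10A (74.1%) and 31 of 1263 reads in MDA-MB-468 (2.45%; adjusted p = 3.41e-20 by Fisher's exact test). The others had 57.1% against 3.03% and 51.6% against 5.71%. In MCF10A the neighbours of these cytosines were unconverted too, at 74.4%, 69.1% and 43.2%, and coverage was 27 to 31 reads, so these are differences of whole stretches. In MDA-MB-468 the second S100A9 site, with 53 of 1752 reads, was called and isolated at neighbours of 2.10%.

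CDC37, the kinase-specific cochaperone of HSP90, had 39 of 42 reads unconverted in MCF10A (92.9%) and 18 of 37 reads in MDA-MB-468 (48.6%; adjusted p = 0.0174 by Fisher's exact test), with neighbours at 46.9% and 28.5%. MRPS15, of the mitochondrial ribosome, was the reverse, with 1 of 84 in MCF10A (1.19%) and 40 of 94 reads in MDA-MB-468 (42.6%; adjusted p = 6.7e-09 by Fisher's exact test), and its neighbours stood at 3.31% and 22.3%. At these 5 sites the neighbouring cytosines were thus higher in the same library as the site itself.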

How the data were processed

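RNA BS-Seq libraries of MCF10A and MDA-MB-468 were analysed, 1 each. The authors deposited raw counts of unconverted and converted reads per cytosine, without normalization. Per the methods, reads were trimmed with Trim Galore, aligned to hg19 and called with MeRanTK (base quality at least 30, duplication level at most 10), while the labels name Bismark in place of MeRanTK, with no versions given in the sources used here. The tables hold introns and sites covered by as few as 5 reads, so they were deposited before the filters of the methods on coverage, introns and structure. Reads carried no molecular identifiers, so intervals cover counting error only. Neighbouring cytosines share reads and are not independent.

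All 4861524 nuclear positions fell on a cytosine of their strand in GRCh37. Sites covered by 10 reads or more in exons of the basic transcripts of GENCODE release 44 (lifted to GRCh37), and the mitochondrial sites of that coverage, were kept for the background and the adjustment. Only nuclear exonic sites entered the comparisons. CNGGG was searched on the strand of each site, and a run of 4 guanines can hold more than 1 guanine triplet. For 53 sites in MCF10A cells and 52 in MDA-MB-468 the context was present in the genome but not in a spliced transcript. Of the sites in the context, 20.9% and 21.7% lay within 10 nt of another one. Regions were assigned with 5′UTR before CDS before 3′UTR. Pairing probabilities came from RNAplfold of ViennaRNA 2.7.2 (window 300 nt, span 150 nt, 70 degrees) on 1 transcript per site, in pieces extended by 100 nt. The methods fold full-length transcripts, so this is not their structure filter. Shares carry 95% Wilson intervals. Python 3.11.15, numpy 2.4.6, pandas 2.3.3 and scipy 1.17.1 were used, and the code was tested on simulated data.

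The context, the lists and the tests were chosen with earlier results of these data known. Sites named are the 12 isolated in both lines with the highest smaller lower bound of the ratio, the 5 of highest coverage, the 5 deepest called but not isolated, the 5 largest differences at a coverage of at least 20, and those in 13 genes linked to NSUN2. Other sites are marked as chosen after their values were seen. Sequence on chromosome 8 is not printed.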

Additional observations from a re-analysis of the deposited data

Results flagged for a closer look

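Cytosines before NGGG that were covered by at least 10 reads outside the exons of basic transcripts took no part in the comparisons above, and some of them were isolated too. In MCF10A 11 of 1639 were called and isolated, 0.671% (0.375 to 1.20%), while 0.134% (0.101 to 0.176%) of the other cytosines outside exons were. In MDA-MB-468 it was 15 of 8640, 0.174% (0.105 to 0.286%), against 0.0498% (0.0405 to 0.0613%) of the others. The intervals did not overlap in either line, and they cover the counting of sites only. The called shares outside exons did not differ in the same way, at 5.25% in the context against 5.95% of the others in MCF10A and 1.66% against 1.61% in MDA-MB-468.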

How the results depend on the processing

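Of the 101 values recomputed under alternative settings, 72 moved by less than their 95% interval, or, for counts, by less than 1.5 times, and none reversed. With cytosines predicted to pair or without prediction left out, 162 cytosines of the context were called in MCF10A cells and 115 in MDA-MB-468, 50 and 57.0 were isolated, 39 were called in both lines and 8 differed. The called share was 2.17 and 1.84 times that of the other sites, the isolated share 8.22 and 11 times, and the difference in pooled nonconversion 0.509 and 0.487 percentage points. At a minimum coverage of 20, 730.0 were called in MCF10A, 216 in both lines and 11 differed, and the pooled difference was 1.04 and 0.918 points. With called sites limited to ratios of 0.2 or more, 93 and 87 were isolated, and the isolated ratio was 8.10 in MCF10A. With neighbours at most 2% unconverted, 69 and 98 were isolated, and the ratio was 11 in MDA-MB-468. With no limit on the neighbours, 260.0 were isolated in MCF10A, and the ratio was 4.97 and 6.61. The mean of site ratios gave differences of 1.21 and 1.06 points. Leaving out shared surroundings, an alternative chosen after seeing the data, gave 0.985 points in MDA-MB-468. No paired analysis was possible because each line has 1 library. The median coverage of 18 limits calls to high ratios, since 20 reads needed 5 unconverted ones in MCF10A cells and 4 in MDA-MB-468, and 50 reads needed 6 in each.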

Other observations

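NSUN2 itself was covered at 127 exonic cytosines in MCF10A cells and 187 in MDA-MB-468. Of its cytosines in the context, none of 4 was called in MCF10A, and 1 of 5 was called and isolated in MDA-MB-468. ALYREF, a reader of m5C in nuclear export, had no cytosine in the context that was covered by 10 reads, and YBX1, a reader in the cytoplasm, had 6 and 5, none of them called. Of the marker genes, VIM had 1 isolated site among 8 in MCF10A and KRT19 had 2 among 16 in MDA-MB-468. The other covered marker genes, KRT5, KRT8, KRT17, KRT18, CDH1 and EGFR, had no isolated site in either line. Isolated sites made up 0.330% of all cytosines of the context in MCF10A cells and 0.405% in MDA-MB-468. Counts this small were not tested against these shares. VIM and KRT19 were picked after their values were seen, as were NSUN2, ALYREF and YBX1.

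RPS3P3, a processed pseudogene of the ribosomal protein gene RPS3, held 1 of the 2 noncoding sites isolated in both lines, with 27 of 95 reads unconverted in MCF10A (28.4%) and 6 of 22 reads in MDA-MB-468 (27.3%). Its 31 bases with C read as T matched no other covered site, but reads of the parent gene with mismatches could fall there, which was not tested. The other noncoding site was in NEAT1, with 7 of 69 (10.1%) and 11 of 107 (10.3%), upstream of the unconverted stretch described above.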
